A study of Mus musculus with 5 samples.

Results

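Wnt and R-spondin signalling genes of liver zonation were examined in single-nucleus RNA-seq (snRNA-seq) of mouse liver. The set held 10 genes chosen by symbol, which are the ligand genes Wnt2, Wnt9b and Rspo3, the R-spondin receptor genes Lgr5 and Lgr4, the feedback genes Axin2, Rnf43 and Znrf3, and the transcription factor genes Tbx3 and Tcf7l2. All 10 were found among the 32285 gene rows of the count matrices. The livers came from male C57BL6/J mice, 3 libraries on regular chow (Chow1 to Chow3) and 2 libraries on a diet that causes metabolic dysfunction-associated steatohepatitis (MASH1 and MASH2). Feeding started at 10 to 12 weeks of age and lasted 5 months, and the MASH diet supplied 40 kcal% fat and 20 kcal% fructose with 2% cholesterol. No transgene or other treatment was given to either group, and whether a library came from 1 mouse or from several is not given in the sources used here. The p-values below therefore measure the spread between libraries.

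Wnt ligands bind Frizzled receptors together with the co-receptors Lrp5 or Lrp6, which stabilises beta-catenin and lets it act with Tcf7l2 and related factors on target genes. R-spondins bind Lgr4 and Lgr5 and hold back the membrane E3 ligases Rnf43 and Znrf3, which otherwise remove Frizzled receptors from the cell surface. In liver, endothelial cells near the central vein are a known source of Wnt2, Wnt9b and Rspo3, and hepatocytes around that vein carry the highest beta-catenin activity. Pericentral hepatocytes make Glul, Cyp2e1 and Cyp1a2, whereas periportal hepatocytes make Cyp2f2 and the enzymes of amino acid breakdown.

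The libraries held 8633 to 12935 barcodes and 35612373 to 49137377 unique molecular identifiers (UMIs), and any pair of libraries shared 23 to 48 barcodes. After filtering, 51470 nuclei remained, of which 2442 were endothelial-like, 3209 were hepatic stellate cell (HSC)-like and 32912 were hepatocyte-like. The summed level of the 7 endothelial markers (Ptprb, Stab2 and 5 others) was 4207 to 9088 counts per 1000000 UMIs (CPM) in endothelial-like nuclei and 81.8 to 184 CPM in HSC-like nuclei. The 7 HSC markers (Reln, Ecm1 and 5 others) summed to 5851 to 11560 CPM in HSC-like nuclei and to 158 to 334 CPM in endothelial-like nuclei. The hepatocyte markers, among them the secreted protein gene Alb, did not separate the classes by sum, at 3479 to 20740 CPM in endothelial-like nuclei against 3346 to 12020 CPM in hepatocyte-like nuclei. Hnf4a alone did, at 160.5 to 397.8 CPM in hepatocyte-like, 25.2 to 148.8 CPM in endothelial-like and 21.2 to 124.5 CPM in HSC-like nuclei. The ranges of the other hepatocyte markers (Cps1, Fgb, Alb and Ttr) overlapped between these classes. Levels of hepatocyte genes in the other classes may thus include free RNA, and its part was not tested. MASH1 and Chow2 stood apart in the median mitochondrial share of their nuclei (7.35% and 3.55%, against 0.880% to 1.24% in the other 3 libraries) and in the number of nuclei left without a name (2819 and 1674, against 552 to 820).

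On the GRCm38 build with GENCODE M21 annotation, all members were protein-coding genes. Wnt2 lay on chromosome 6 from 17988940 to 18030585, Wnt9b on chromosome 11 from 103727364 to 103749821, and Rspo3 on chromosome 10 from 29452416 to 29535867. The feedback genes were all on chromosome 11, Axin2 from 108920349 to 108950783, Rnf43 from 87662722 to 87735539 and Znrf3 from 5276324 to 5444847. Rspo3, Rnf43 and Tcf7l2 share part of their span on the same strand with Gm20276, 1110028F11Rik and Ppnr, so reads from those stretches cannot be assigned with certainty. RefSeq promoter windows, from 250 bases before to 50 bases after a start on GRCm38.p6, were at hand for 6 of the 10 members. The windows of Axin2 and Rnf43 are shown because these 2 members differed between the diets, and that of Sp5, a beta-catenin target gene, because it holds both forms of the Tcf site that were searched. Another Rnf43 window, chr11:87699647-87699946, is not shown. The first form was CTTTGAT and the other was CTTTGTT, both were searched on both strands, and capitals mark their matches.
Axin2, chr11:108920099-108920398, plus strand: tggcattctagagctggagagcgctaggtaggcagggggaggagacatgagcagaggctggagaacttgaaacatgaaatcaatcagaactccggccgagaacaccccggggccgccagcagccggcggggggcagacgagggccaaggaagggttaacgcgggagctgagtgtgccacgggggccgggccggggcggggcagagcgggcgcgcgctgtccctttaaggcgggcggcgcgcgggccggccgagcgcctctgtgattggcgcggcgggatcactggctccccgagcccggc
Rnf43, chr11:87662837-87663136, plus strand: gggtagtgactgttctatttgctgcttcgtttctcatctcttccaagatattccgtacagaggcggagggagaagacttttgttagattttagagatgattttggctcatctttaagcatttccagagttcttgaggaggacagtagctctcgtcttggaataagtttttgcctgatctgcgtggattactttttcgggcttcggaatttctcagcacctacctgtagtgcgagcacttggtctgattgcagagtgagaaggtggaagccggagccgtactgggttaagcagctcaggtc
Sp5, chr2:70474673-70474972, plus strand: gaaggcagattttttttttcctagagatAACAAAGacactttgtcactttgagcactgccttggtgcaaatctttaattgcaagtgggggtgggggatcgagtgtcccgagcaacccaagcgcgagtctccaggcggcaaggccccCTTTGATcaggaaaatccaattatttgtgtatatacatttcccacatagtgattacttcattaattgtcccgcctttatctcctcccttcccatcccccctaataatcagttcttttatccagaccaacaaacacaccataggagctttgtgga

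CTTTGAT was in 3.73% of 32851 promoter windows and in none of the 6 members' windows, but in those of 3 of 10 pericentral target genes (Lect2, Slc1a2 and Sp5). CTTTGTT was in 5.85% of windows, among them the window at the second listed start of Tcf7l2 (chr19:55895071-55895370) and that of Sp5. A match is a description of the letters and not of a bound site, and a window without a match says nothing about the factor.

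The first question was which cells carried the ligands. Among the named classes the level of Wnt2 was highest in endothelial-like nuclei, while Rspo3 RNA was found in both endothelial-like and HSC-like nuclei. Wnt2, the more plentiful of the Wnt ligands here, had 24, 16 and 18 UMIs in endothelial-like nuclei of Chow1 to Chow3 and 18 and 45 UMIs in those of MASH1 and MASH2. As a level this was 41.6, 51.8 and 43.1 CPM on chow and 32.4 and 66.7 CPM on the MASH diet. All 5 endothelial-like values lay above those of every other named class, the next being dendritic-like nuclei at 0 to 22.7 CPM, and HSC-like nuclei had 0 to 3.41 CPM. Hepatocyte-like nuclei had 0.147 to 0.526 CPM of Wnt2. Diets overlapped in the endothelial-like values.

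**Figure D1:**
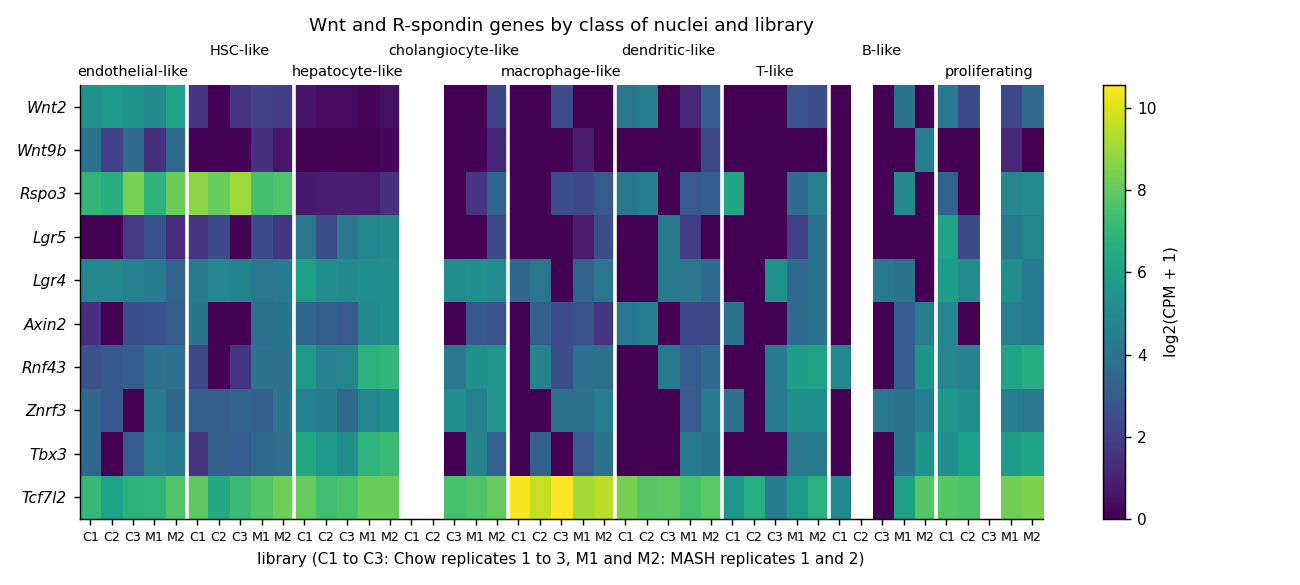
Level of each of the 10 genes (y axis) in each library of 9 classes of nuclei (x axis), as log2(CPM + 1) by color, with sums of fewer than 20 nuclei left white. Wnt2 is highest in endothelial-like nuclei (32.4 to 66.7 CPM), Rspo3 in HSC-like (175 to 535 CPM) and endothelial-like nuclei, and Tcf7l2 in macrophage-like nuclei.

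Wnt9b, the other ligand attributed to central vein endothelium, was near the limit of detection. Endothelial-like nuclei held 9, 1 and 5 Wnt9b UMIs in the Chow libraries and 1 and 8 in the MASH libraries, which is 1.80 to 15.6 CPM. HSC-like nuclei of the 3 Chow libraries had no Wnt9b UMI, which allows up to 2.43 CPM over these libraries, and hepatocyte-like nuclei had 0 to 0.134 CPM. The gene was too low for a test in any comparison. Intervals and floors cover counting error only.

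Rspo3, which encodes the R-spondin that amplifies Wnt signals around the central vein, reached 421, 274 and 535 CPM in HSC-like nuclei of Chow1 to Chow3 and 175 and 199 CPM in those of MASH1 and MASH2. Its level in endothelial-like nuclei was 119.5, 93.8 and 345 CPM on chow and 113 and 290.7 CPM on the MASH diet. HSC-like and endothelial-like ranges overlapped each other and both lay above every other named class, where the highest single value was 76.6 CPM in T cell-like nuclei. A Rspo3 UMI was seen in 20.4% to 42.1% of HSC-like nuclei (median 942 to 1306 UMIs per nucleus) and in 4.90% to 11.8% of endothelial-like nuclei (median 840 to 1114 UMIs). Hepatocyte-like nuclei, with a median of 3149 to 4264.5 UMIs, carried one in 0.271% to 0.707%. A single endothelial-like nucleus held up to 14 Rspo3 UMIs, in Chow3.

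**Figure D2:**
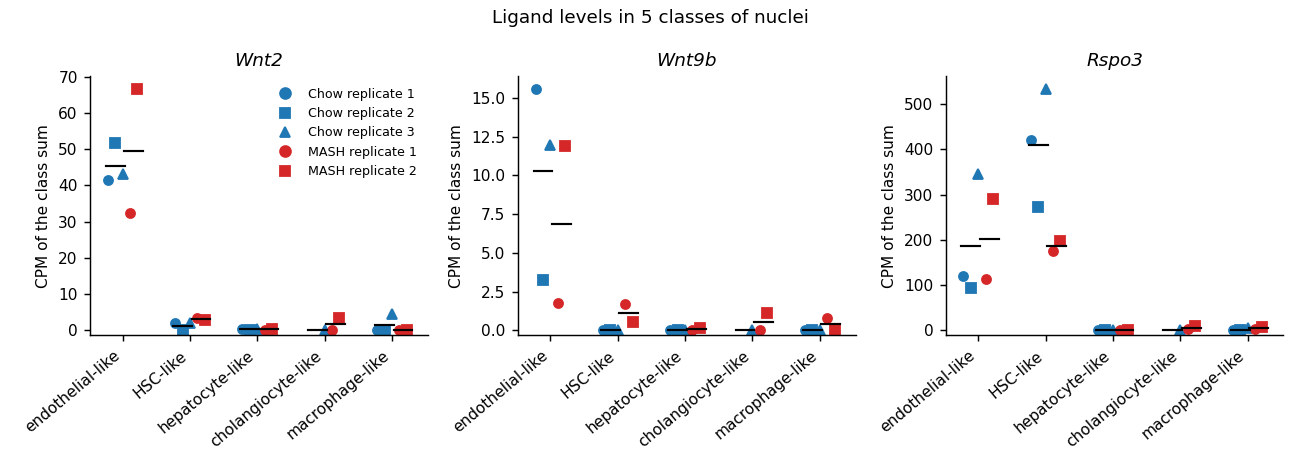
Levels of Wnt2, Wnt9b and Rspo3 in CPM (y axis) in 5 classes of nuclei (x axis), with 1 point per library and a bar at the mean of each diet. Wnt2 is highest in endothelial-like nuclei (32.4 to 66.7 CPM), while Rspo3 is also high in HSC-like nuclei, where the 3 Chow libraries (274 to 535 CPM) lie above the 2 MASH libraries (175 and 199 CPM).

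Endothelial-like and HSC-like nuclei of the same libraries were compared with edgeR's quasi-likelihood test. In this comparison 27.0% of 7688 tested genes passed an adjusted p of 0.05, and of the 4 members with enough counts Wnt2 was higher and Rspo3 and Tcf7l2 were lower in endothelial-like nuclei. Wnt2 differed by 4.01 on the log2 scale (SE 0.34, adjusted p = 1.05e-07 by edgeR) and was higher in 5 of 5 libraries. Rspo3 was lower by a log2 difference of -0.87 (SE 0.25, adjusted p = 0.0160 by edgeR), with endothelial-like below HSC-like nuclei in 4 of 5 libraries and above them in MASH2. This call was lost without Chow1 (-0.52, adjusted p = 0.128 by edgeR) and without Chow2 (-0.71, adjusted p = 0.0850 by edgeR). It was also lost without the library as a block (-0.78, adjusted p = 0.221 by edgeR) and with a mitochondrial share under 5% (-0.89, adjusted p = 0.0596 by edgeR). Tcf7l2, the Tcf factor through which beta-catenin acts, had a log2 difference of -0.79 (SE 0.15, adjusted p = 0.000471 by edgeR). With nuclei gated on markers alone, without clusters, the Tcf7l2 value was -0.16 and no longer passed, and that of Rspo3 was -1.62. Lgr4 had a value of -0.19 (SE 0.29) and did not pass.

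Genes of the wider pathway were described from fixed lists. Of 22 other ligand and export genes, 2 had enough counts and both were lower in endothelial-like than in HSC-like nuclei, Wnt4 by a log2 fold change of -3.60 and Wls, the carrier that brings Wnt proteins to the surface, by -0.61. Among 6 tested receptor genes, Fzd6 (2.86), Fzd4 (1.93) and Lrp5 (0.61) were higher, and Ryk (-1.73) was lower. All 3 inhibitor genes that passed, of 4 tested, were lower in endothelial-like nuclei, the secreted Wnt binder Frzb by -2.81, Dkk3 by -1.69 and the Dishevelled antagonist Nkd1 by -1.53. Of 12 core genes, Apc (1.24), Tcf7l1 (1.15) and Ctnnb1 (0.59), the gene of beta-catenin, were higher, while Csnk1a1 (-1.03) and Bcl9l (-0.82) were lower. Median log2 fold changes were -2.11 for the ligand list, 0.36 for receptors, -1.61 for inhibitors and -0.11 for core genes, against -0.02 over all tested genes. Gated on markers alone, Lrp5, Ctnnb1, Tcf7l1 and Bcl9l did not pass.

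The named classes did not hold all ligand RNA. Endothelial-like nuclei accounted for 31.2% to 47.4% of the Wnt2 UMIs of a library, nuclei without a class name for 23.2% to 45.5% and hepatocyte-like nuclei for 5.56% to 20.0%. Unnamed nuclei held more Wnt2 UMIs than endothelial-like nuclei in 4 of 5 libraries, all but MASH2. Of the Rspo3 UMIs, 33.8% to 51.9% were in HSC-like, 14.5% to 26.2% in endothelial-like and 16.2% to 36.9% in unnamed nuclei. The largest share of the latter came from a cluster of 1701 nuclei with 80 Wnt2 and 395 Rspo3 UMIs. Its median doublet score was 0.118, and 7 endothelial and 5 macrophage markers but 0 HSC markers passed the limits used for naming. Hepatocyte markers could not decide here, because 0 of them passed in the hepatocyte-like clusters as well. The cluster had Hnf4a at 254.5 CPM, against 160.5 to 397.8 CPM in hepatocyte-like nuclei. Another unnamed cluster of 380 nuclei had Ptprb at 793 CPM, Reln at 389 CPM and Rspo3 at 117 CPM. In such shares, fewer nuclei of a class and less RNA per nucleus cannot be told apart.

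The next question was where within the endothelium the ligands lay. Endothelial-like nuclei were split by markers that are not members, into nuclei with central vein markers only (Kit, Thbd or Cdh13) and nuclei with portal markers only (Dll4, Efnb2, Ltbp4, Ntn4 or Adam23). Nuclei with markers of both sides (10.3% to 20.9% per library) or of neither side (19.5% to 30.9%) were left out. Of 501 Rspo3 UMIs in endothelial-like nuclei, 189 lay in central-marker and 57 in portal-marker nuclei. For Wnt2 these counts were 24 and 37 of 121 UMIs, so the split does not place the rest of the ligand RNA. Rspo3 was far higher in the central-marker nuclei of every library. Its level there was 394, 178 and 1176 CPM in Chow1 to Chow3 and 476 and 801 CPM in MASH1 and MASH2. Portal-marker nuclei had 14.0, 40.2 and 72.5 CPM on chow and 31.9 and 74.4 CPM on the MASH diet, so that the ranges did not overlap. The log2 fold change was 3.71 (SE 0.23, adjusted p = 2.41e-12 by edgeR), in a comparison in which 1.09% of 1921 tested genes passed. Tcf7l2 was the only other member tested, with a value of -0.37 (SE 0.29) that did not pass.

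**Figure D3:**
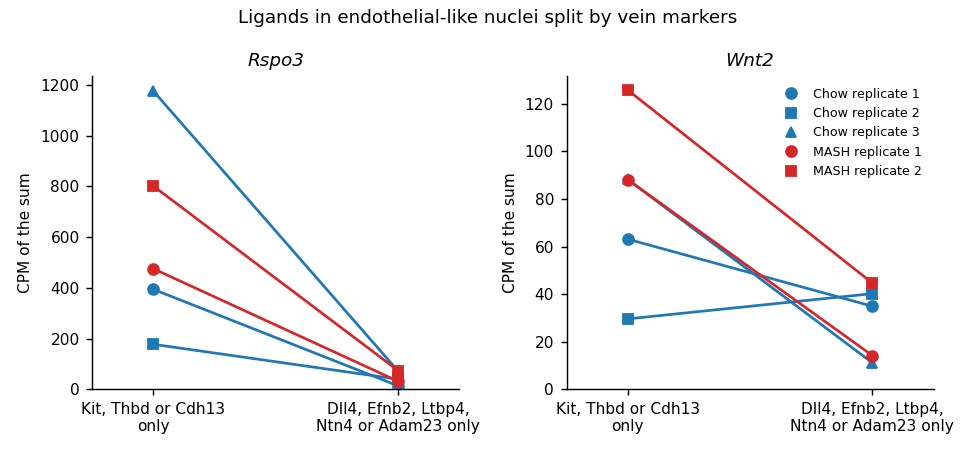
Levels of Rspo3 and Wnt2 in CPM (y axis) in central-marker (Kit, Thbd or Cdh13 only) and portal-marker endothelial-like nuclei (x axis), with lines joining the sums of the same library. Rspo3 is higher in central-marker nuclei of all 5 libraries (178 to 1176 against 14.0 to 74.4 CPM), and Wnt2 in 4 of 5.

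Wnt2 was too low for the test in this split. Central-marker nuclei held 4, 1 and 6 Wnt2 UMIs in the Chow libraries and 5 and 8 in the MASH libraries, or 29.6 to 126 CPM, against 11.2 to 44.7 CPM in portal-marker nuclei. The Wnt2 level was higher in central-marker nuclei in 4 of 5 libraries and lower in Chow2, where it rested on 1 UMI. Wnt9b had 0 to 2 UMIs on either side, which does not allow a comparison. The sums were small, with 25 to 73 central-marker and 119 to 342 portal-marker nuclei per library. Stellate markers did not separate the sides, at 132 to 424 CPM in central-marker and 150 to 316 CPM in portal-marker nuclei.

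No member passed the test between the diets in endothelial-like or HSC-like nuclei. Of 5 members tested in endothelial-like nuclei 0 passed, in a comparison that called 0.645% of 8377 genes. The member with the lowest unadjusted p was Tbx3 at a log2 difference of 1.68 (SE 0.72, adjusted p = 0.526 by edgeR). In endothelial-like nuclei Tbx3 had 9 UMIs over the Chow and 26 UMIs over the MASH libraries, and the part of free RNA was not tested. Wnt2 (0.09, SE 0.41) and Rspo3 (0.03, SE 0.56) were close to no difference there, with wide errors. In HSC-like nuclei 0 of 3 tested members passed, where 0.814% of 7981 genes were called. Rspo3 in HSC-like nuclei was lower in both MASH than in all 3 Chow libraries, with a log2 difference of -1.17 (SE 0.39, adjusted p = 0.218 by edgeR). With nuclei gated on markers alone this value was -0.38 (adjusted p = 0.738 by edgeR). Tbx3 in endothelial-like nuclei and Rspo3 in HSC-like nuclei were the members with an unadjusted p under 0.05, and DESeq2 called 0 members in either class.

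In hepatocytes the question was how the receptors and targets of the pathway differ between pericentral and periportal nuclei. Hepatocyte-like nuclei of each library were ranked by Cyp2e1 and Cyp1a2 minus Cyp2f2 and cut into 3 zones of equal numbers of nuclei, so these 3 genes are not results. Lgr5, Tbx3, Axin2, Rnf43 and Znrf3 were all higher in the Cyp2e1/Cyp1a2-high zone, and Lgr4 was slightly lower. Of the 7 members tested, 5 were higher and 1 was lower, while over all 12344 tested genes 18.0% were called, 9.19% higher and 8.81% lower (1134 and 1088 genes, or 1600 and 797 with total-count scaling). The median log2 fold change of the members was 1.22, against -0.01 over all genes. Median depth was 3266 to 4732 UMIs per nucleus in the Cyp2e1/Cyp1a2-high and 2903 to 3834.5 UMIs in the Cyp2f2-high zone.

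**Figure D4:**
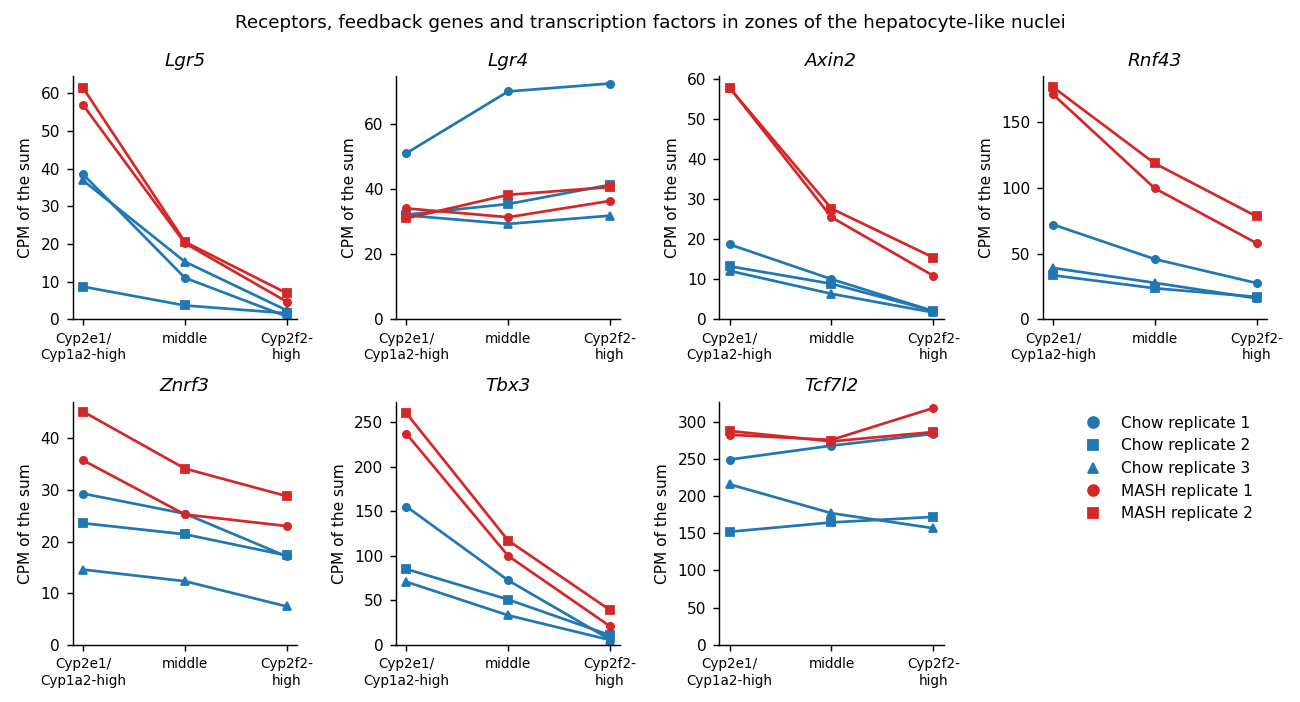
Levels of the receptor, feedback and transcription factor genes in CPM (y axis) in the Cyp2e1/Cyp1a2-high, middle and Cyp2f2-high zones of hepatocyte-like nuclei (x axis), with 1 line per library. Lgr5, Axin2, Rnf43, Znrf3 and Tbx3 are higher in the Cyp2e1/Cyp1a2-high than in the Cyp2f2-high zone of all 5 libraries, whereas Lgr4 and Tcf7l2 differ between these zones by less than 1.5 times in every library.

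Lgr5, a receptor for R-spondins and itself a beta-catenin target, showed the widest difference. Its level was 38.5, 8.68 and 36.9 CPM in the Cyp2e1/Cyp1a2-high zone of Chow1 to Chow3 and 56.9 and 61.4 CPM in that of MASH1 and MASH2. The Cyp2f2-high zone had 0.778, 1.63 and 2.39 CPM on chow and 4.69 and 6.95 CPM on the MASH diet. The zones did not overlap, and Chow2 had the lowest Lgr5 in the Cyp2e1/Cyp1a2-high zone. The log2 fold change was 3.58 (SE 0.25, adjusted p = 0.000154 by edgeR). Lgr4, the broadly expressed R-spondin receptor, had 51.1, 32.2 and 32.0 CPM on chow and 34.2 and 31.1 CPM on the MASH diet in the Cyp2e1/Cyp1a2-high zone. Against this stood 72.6, 41.4, 31.9, 36.5 and 40.7 CPM in the Cyp2f2-high zone of the same libraries, a log2 difference of -0.34 (SE 0.085, adjusted p = 0.0259 by edgeR). The Lgr4 call was lost under 6 of 14 alternatives. Among these were the tests without Chow1 (-0.27), without Chow2 (-0.31), without MASH2 (-0.33) and with nuclei gated on markers alone (-0.31).

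Tbx3, a T-box transcription factor gene of pericentral hepatocytes, had 155, 84.9 and 70.6 CPM in the Cyp2e1/Cyp1a2-high zone of the Chow libraries and 237 and 260.0 CPM in that of the MASH libraries. In the Cyp2f2-high zone it had 5.83, 10.7 and 5.28 CPM on chow and 20.7 and 38.9 CPM on the MASH diet. These values did not overlap, and the log2 fold change was 3.38 (SE 0.22, adjusted p = 0.000125 by edgeR). Tcf7l2 was even across the zones, with ratios of the Cyp2e1/Cyp1a2-high to the Cyp2f2-high level between 0.878 and 1.38 and a log2 difference of -0.08 (SE 0.096, adjusted p = 0.616 by edgeR).

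Axin2, which builds the beta-catenin destruction complex and is a common readout of the pathway, had 18.7, 13.3 and 12.1 CPM in the Cyp2e1/Cyp1a2-high zone on chow and 57.9 and 57.8 CPM on the MASH diet. Its levels in the Cyp2f2-high zone were 2.07, 2.11 and 1.73 CPM on chow and 10.9 and 15.5 CPM on the MASH diet. Axin2 in the Cyp2f2-high zone of MASH2 thus exceeded that in the Cyp2e1/Cyp1a2-high zone of Chow2 and Chow3, although within each library the Cyp2e1/Cyp1a2-high zone was 3.74 to 9.03 times higher. The log2 fold change was 2.39 (SE 0.15, adjusted p = 0.000110 by edgeR).

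Rnf43, one of the E3 ligases that clear Frizzled receptors, was 1.96 to 2.96 times higher in the Cyp2e1/Cyp1a2-high zone, with a log2 difference of 1.22 (SE 0.088, adjusted p = 0.000165 by edgeR). Znrf3, its relative, was 1.36 to 1.96 times higher and had a log2 difference of 0.62 (SE 0.084, adjusted p = 0.00198 by edgeR). Without the library as a block, the Znrf3 difference (0.61) and the Lgr4 difference (-0.35) did not pass. Wnt2, Wnt9b and Rspo3 were too low in hepatocyte-like nuclei for this comparison.

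A narrower view came from Glul, the glutamine synthetase gene of the hepatocytes next to the central vein. In nuclei with at least 2 Glul UMIs, Lgr5 was at 96.0, 19.0 and 98.8 CPM on chow and at 99.4 and 84.1 CPM on the MASH diet, and in nuclei without a Glul UMI at 10.7, 3.26, 11.3, 10.2 and 16.6 CPM. Tbx3 was at 161 to 342 CPM in the former and at 25.5 to 83.8 CPM in the latter, and Axin2 at 30.1 to 79.5 CPM against 4.95 to 22.5 CPM. Here the Lgr5 levels of Chow1, Chow3 and both MASH libraries lay side by side, with Chow2 alone below. The number of nuclei with at least 2 Glul UMIs was 400, 682 and 533 in the Chow libraries and 721 and 760 in the MASH libraries. Nuclei with more UMIs pass such a count more easily, so these values are a description without a test.

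Other genes of the pathway were set beside the members. Of 15 pericentral target genes, 14 were higher in the Cyp2e1/Cyp1a2-high zone, led by the glutamate transporter gene Slc1a2 (4.19), Sp5 (3.86) and Glul (2.73), and 1 was lower, the aldehyde dehydrogenase gene Aldh1b1 (-1.36). Of 10 periportal genes, 9 were lower, led by Sds (-3.26), Hal (-2.52) and Sdsl (-2.52), which break down serine and histidine. The medians of these lists were 1.89 and -2.01 on the log2 scale. Receptors divided, with Fzd7 (0.66) and Lrp5 (0.49) higher, Lrp6 (-0.29) lower and the other 7 of 10 tested not called. Among inhibitors, Notum (1.65), a secreted enzyme that inactivates Wnt proteins, and Kremen1 (0.60) were higher of 3 tested. Bcl9l (0.72) was higher and Tcf7l1 (-1.70) lower of 15 core genes, and Wnt5a (0.88) was higher of 5 ligand and export genes. The medians of the receptor, core and ligand lists were -0.03, -0.02 and -0.31.

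Between the diets, the feedback genes Axin2 and Rnf43 were higher in hepatocyte-like nuclei of the MASH libraries. Axin2 was at 10.9, 8.27 and 6.82 CPM in Chow1 to Chow3 and at 31.7 and 34.8 CPM in MASH1 and MASH2. Rnf43 was at 50.1, 25.0 and 27.9 CPM on chow and at 110.4 and 127 CPM on the MASH diet. Neither gene overlapped between the diets, and the share of all genes without such an overlap was not counted. Of 9 members tested, 2 were called higher and 0 lower, against 13.5% of 14910 genes over all, 9.0% higher and 4.53% lower (1342 and 676 genes, or 1618 and 364 with total-count scaling). Log2 fold changes were 1.64 for Axin2 (SE 0.22, adjusted p = 0.00818 by edgeR) and 1.499 for Rnf43 (SE 0.27, adjusted p = 0.0178 by edgeR).

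Both calls were lost when either MASH library was left out. Axin2 kept a log2 fold change of 1.64 without MASH1 and without MASH2, but its adjusted p by edgeR was then 0.101 and 0.102. Rnf43 was at 1.53 without MASH1 and 1.46 without MASH2, with adjusted p of 0.131 and 0.149 by edgeR. With all 5 libraries, both genes also passed within each zone of hepatocyte-like nuclei. Axin2 was at 1.74 in the Cyp2e1/Cyp1a2-high, 1.38 in the middle and 2.40 in the Cyp2f2-high zone, and Rnf43 at 1.62, 1.47 and 1.44. The zones are parts of the same nuclei and libraries, so these values are not independent of the calls above. Over all genes, 1139 of 13176, 1637 of 13228 and 1247 of 12850 were called in these zones. Markers of several other cells were also higher in the hepatocyte-like nuclei of the MASH libraries. Macrophage markers were at 33.2 to 61.2 against 11.8 to 16.1 CPM and proliferation markers at 11.3 to 12.7 against 0.338 to 1.10 CPM. HSC markers were at 79.8 to 91.0 against 39.1 to 41.9 CPM and endothelial markers at 55.5 to 80.6 against 24.1 to 36.4 CPM. B cell markers (6.16 to 6.63 against 9.62 to 65.3 CPM) and plasma cell markers (9.67 to 15.16 against 15.17 to 53.26 CPM) were lower. Macrophage-like nuclei had 0 to 8.43 CPM of Axin2 and 0 to 25.3 CPM of Rnf43, and proliferating nuclei had 0 to 28.8 and 24.8 to 95.6 CPM, which overlapped the hepatocyte-like values. Hepatocyte markers summed to 7440 to 12020 CPM on chow and to 3346 to 4353 CPM on the MASH diet, and the part of these shifts in the results was not tested.

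**Figure D5:**
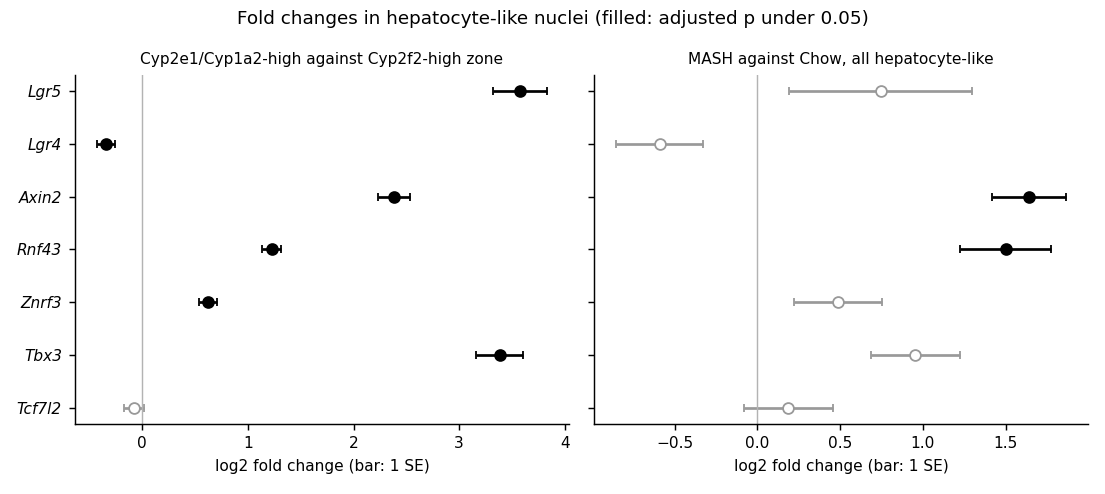
Log2 fold changes with standard errors (x axis) of the receptor, feedback and transcription factor genes (y axis) in hepatocyte-like nuclei, for the Cyp2e1/Cyp1a2-high against the Cyp2f2-high zone and for MASH against Chow, with filled points at an adjusted p under 0.05. Axin2 and Rnf43 are the members called in both contrasts, and Lgr5 and Tbx3 have the widest differences between zones (3.58 and 3.38).

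The remaining members did not pass between the diets. Tbx3 was at 83.1, 49.8 and 36.6 CPM on chow and at 121 and 144 CPM on the MASH diet, a log2 difference of 0.95 (SE 0.27, adjusted p = 0.0558 by edgeR). It passed without Chow1 (1.18, adjusted p = 0.0240 by edgeR), with DESeq2 (adjusted p = 0.0220) and in the Cyp2f2-high zone alone (1.70, adjusted p = 0.0423 by edgeR). Lgr5 was at 18.0, 4.73 and 18.3 CPM on chow and at 27.6 and 31.2 CPM on the MASH diet, a log2 fold change of 0.74 with an SE of 0.55. Lgr4 had a log2 difference of -0.59 (SE 0.26), with Chow1 at 64.0 CPM and the other 4 libraries at 31.0 to 36.4 CPM. Znrf3 (0.48), Rspo3 (0.33), Tcf7l2 (0.19) and Wnt2 (-0.57) lay within about 2 standard errors of no difference.

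The zone difference itself was compared between the diets. Of 8 members tested 0 passed by edgeR and 0 by DESeq2, while 0.889% of 13727 genes did, and Axin2 was the one member with an unadjusted p under 0.05. Its difference between zones was smaller in the MASH libraries by -0.67 on the log2 scale (SE 0.24, unadjusted p = 0.0211 and adjusted p = 0.266 by edgeR). Lgr5 (-0.57, SE 0.52) and Tbx3 (-0.59, SE 0.39) had values of the same sign with wider errors. Rnf43 had a value of 0.19 (SE 0.16). Zones are relative to each library, and Cyp2f2 in the Cyp2f2-high zone was at 245 CPM in MASH2 and at 538 to 1056 CPM in the other libraries.

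Among pathway genes beside the members, the diets differed for few. Of 15 pericentral target genes, 4 were higher in the MASH libraries, led by Slc13a3 (2.52), the ammonium transporter gene Rhbg (1.77) and Glul (1.30), and Oat (-1.31) was lower, with a list median of 0.84. Of 10 periportal genes, Ctsc (-1.97) was lower and 9 were not called, with a list median of -1.19. Nkd1 (2.89), a feedback inhibitor, was higher and the other 6 of 7 tested inhibitors were not called. Wls (3.18) and Wnt5a (1.78) were higher and Porcn (-1.78), the enzyme that attaches the lipid to Wnt proteins, was lower of 7 ligand and export genes. Of 15 core genes Bcl9 (1.45) and Btrc (1.16) were higher. Of 11 receptor genes none passed by edgeR after adjustment and 4 had an unadjusted p under 0.05, with a list median of 0.57. Without MASH2 none of the genes named here passed, and without MASH1 only Wls did (3.76, adjusted p = 0.0340 by edgeR).

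Levels were also read in the other classes. Tcf7l2 was highest in macrophage-like nuclei, at 554 to 1518 CPM, above every value of any other class, and was at 163 to 292 CPM in hepatocyte-like, 87.1 to 301 CPM in HSC-like and 67.9 to 206 CPM in endothelial-like nuclei. Lgr5, Axin2, Rnf43, Tbx3 and Lgr4 had their highest means in hepatocyte-like nuclei or in the small proliferating class, whose ranges overlapped. Znrf3 had like levels in cholangiocyte-like (23.6 to 44.3 CPM), proliferating (17.8 to 48.0 CPM) and hepatocyte-like nuclei (11.5 to 36.5 CPM). Lgr5 in endothelial-like nuclei rested on 0 to 3 UMIs per library and Axin2 on 0 to 5, and Axin2 in HSC-like nuclei on 0 to 28.

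Genes with the most similar pattern to a member were listed by Pearson's r of log2(CPM + 5) over 42 sums of class and library, which share libraries and depth. For Wnt2 these were Pcdh12 (0.88), Prickle1 (0.87) and Galnt18 (0.85), for Rspo3 Tmem47 (0.89), Hmcn1 (0.88) and Eln (0.88), and for Tbx3 Abcb4 (0.91), Gm36041 (0.89) and Gm29966 (0.88). Lgr5 was closest to Akap5 (0.80), Gm47761 (0.80) and Gm34777 (0.79). Wnt9b was below the mean level of 5 CPM that this listing required.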

How the data were processed

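Nuclei of frozen liver were sorted and profiled with 10x Genomics 3' chemistry. The authors aligned reads with Cell Ranger 8.0.1 to the mm10-2020-A reference (GRCm38) without intronic reads and deposited raw UMI counts per gene and nucleus, 1 matrix per library, for 3 Chow and 2 MASH libraries. Totals were 35612373 to 49137377 UMIs per library.

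Nuclei with at least 300 genes were kept. The automatic threshold of Scrublet (scanpy 1.11.5) called 0 to 3 doublets per library, so the highest-scoring 0.8% per 1000 nuclei were removed. Clusters that did not meet the naming limits were kept as unnamed. The largest of them, with 3771 nuclei, had a median doublet score of 0.0328 and a median mitochondrial share of 26.1%. Residual doublets may remain among the unnamed nuclei, as a cluster of 1701 nuclei had a median doublet score of 0.118. Nuclei were clustered with Seurat 5.3.0 (RPCA integration, 3000 variable genes without the members, 15 components, resolution 0.2, then 0.5 for non-hepatocytes). Class names were rebuilt from markers, with naming limits set after the data were seen, so classes can differ from those of the study. Hepatocyte-like clusters were those with fewer than 3 markers of every other class passing and a median mitochondrial share under 10%. No limit on hepatocyte markers was applied to them. The other classes needed, among other limits, a mean marker log2 fold of at least 2 and at least 3 markers passing. Members and lists were chosen with earlier results of these data known.

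Counts were summed per library and class (sums of at least 20 nuclei) and tested with edgeR 4.0.16 in R 4.3.3 (quasi-likelihood F-test, TMM, filterByExpr, Benjamini-Hochberg adjustment over all tested genes, calls at 0.05). Contrasts within libraries had the library as a block. CPM are per 1000000 UMIs of the sum. On simulated counts, 69% of changes of 2 on the log2 scale and 3% of changes of 1 between diets in hepatocyte-like nuclei were recovered over 14481 genes, and 97% of changes of 1 between zones over 12269 genes. Alternatives were DESeq2 1.42.0, total-count scaling, no filter, q-values, leaving out each library, the replicate number as a block, other gates, doublet and mitochondrial limits, and other zone cuts. Diet tests within each zone were added after seeing the data. All members were named, and from each further list up to 3 called genes per direction with the widest difference in each comparison.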

Additional observations from a re-analysis of the deposited data

Results flagged for a closer look

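Differences between the zones of hepatocyte-like nuclei that themselves differed between the diets were found for 2 listed genes that are not members. Fzd7, a Frizzled receptor gene, had a zone by diet interaction of -0.89 on the log2 scale (SE 0.16, adjusted p = 0.0469 by edgeR), so its difference toward the Cyp2e1/Cyp1a2-high zone was smaller in the MASH libraries. Ass1, a periportal gene of the urea cycle, had an interaction of -1.06 (SE 0.15, adjusted p = 0.0220 by edgeR). Over all genes 0.889% passed this test. The Fzd7 value did not pass without Chow2 (-0.99), MASH1 (-0.89) or MASH2 (-0.85), with DESeq2 (-0.88) or with narrower zones (-0.94), and the Ass1 value did not pass without Chow2 (-1.03), MASH1 (-0.86) or MASH2 (-1.21). The causes were not tested.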

How the results depend on the processing

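Of 12 called member differences, under 163 alternatives in all, 147 kept their direction and call, 16 kept their direction but lost the call and 0 reversed. The 16 are those of Axin2 and Rnf43 between diets, Lgr4 and Znrf3 between zones, and Rspo3 and Tcf7l2 between endothelial-like and HSC-like nuclei. The adjusted p by edgeR of the lost Lgr4 calls was 0.0546 to 0.607, and that of Rspo3 0.0596 to 0.221. For 26 member differences that were not called, 25 of 332 alternatives had the other sign and 5 passed, all 5 of them Tbx3 between diets (0.94 to 1.70). The cause of a lost call was not tested. With 2 MASH libraries, leaving out either one also lowers the power of the diet tests.

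Between diets in endothelial-like nuclei 54 genes were called, and 180 with total-count scaling, 85 with DESeq2, 285 without the filter, 409 with marker gates and 0 to 58 when a library was left out (0 without Chow3, where 542 had an unadjusted p under 0.05). In HSC-like nuclei 65 were called, and 190, 133, 535 and 109 under the same settings, 131 with a mitochondrial share under 5% and 2 to 55 when a library was left out. In hepatocyte-like nuclei 2018 were called (1342 higher and 676 lower, or 1618 and 364 with total-count scaling), and 3411 with DESeq2 (1815 higher and 1596 lower), 3871 with q-values, 1139 in the Cyp2e1/Cyp1a2-high zone, 1247 in the Cyp2f2-high zone and 138 to 2829 when a library was left out. Total-count scaling moved the median of all genes there from -0.02 to 0.29 and, between endothelial-like and HSC-like nuclei, from -0.02 to 0.11. Between zones 2222 genes were called (1134 higher and 1088 lower, or 1600 and 797 with total-count scaling), and 1293 to 1831 when a library was left out. The interaction called 122 genes, 511 without the filter, 281 with the wider zone score and 0 to 528 when a library was left out (0 without MASH2, where 949 had an unadjusted p under 0.05). Endothelial-like against HSC-like nuclei gave 2079 calls (969 higher and 1110 lower, or 1239 and 901 with total-count scaling), 3262 without the filter, 1373 with marker gates, 1094 with a mitochondrial share under 5% and 1759 to 2063 when a library was left out. Central-marker against portal-marker nuclei gave 21 calls, 13 with DESeq2, 86 without the filter, 13 with a mitochondrial share under 5% and 12 to 35 when a library was left out. Under the 5% limit this comparison used only Chow1, Chow3 and MASH2, because Chow2 and MASH1 had fewer than 20 central-marker nuclei.

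With the replicate number as a block, the diet comparisons called 1894 genes in hepatocyte-like, 36 in endothelial-like and 114 in HSC-like nuclei. Between same-numbered Chow and MASH libraries, deviations had correlations of -0.10 and -0.22 in hepatocyte-like and -0.44 and -0.45 in endothelial-like nuclei. In HSC-like nuclei they were -0.34 and -0.30. With 2 MASH libraries, the deviations of MASH1 and MASH2 from their mean mirror each other. These values therefore cannot decide whether the numbers pair the libraries. Without the library as a block, 177 genes were called between zones, 1477 between endothelial-like and HSC-like nuclei and 11 between central-marker and portal-marker nuclei.

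None of the member differences whose value took the other sign was called. In endothelial-like nuclei between diets, Wnt2 was at -0.30 to 0.36 when a library was left out (below 0 without Chow1 or MASH2), at -0.0054 with the replicate block and at -0.18 with marker gates. Rspo3 there was at -0.55 to 0.85 when a library was left out (below 0 without Chow1, Chow2 or MASH2) and at -0.22 with a mitochondrial share under 5%. In hepatocyte-like nuclei between diets, Rspo3 was at -0.25 to 0.73 when a library was left out, below 0 without MASH2. For the interaction when a library was left out, Rspo3 was at -1.21 to 0.81 (below 0 without MASH2), Lgr4 at -0.022 to 0.26 (below 0 without Chow1 or MASH1), Znrf3 at -0.14 to 0.11 (above 0 without Chow1, Chow3 or MASH1) and Tcf7l2 at 0.17 without Chow3 and 0.07 without MASH1. Rspo3 was at -0.019 with DESeq2. Znrf3 was at 0.0027 with DESeq2, 0.037 with doublet calls at the higher rate, 0.052 with a mitochondrial share under 5% and 0.27 with narrower zones. Between endothelial-like and HSC-like nuclei, Lgr4 was at -0.32 to 0.15 when a library was left out (above 0 without MASH2) and at 0.039 with marker gates. Cps1, a listed periportal gene that is not a member, was called higher in endothelial-like nuclei there. With marker gates it took the other sign (-0.0082) and did not pass. Between central-marker and portal-marker nuclei, Tcf7l2 was at 0.093 with marker gates. Of values that kept their sign, Lgr5 between diets in hepatocyte-like nuclei was at 1.46 with the replicate block and Wnt2 in endothelial-like nuclei at 0.68 with a mitochondrial share under 5%, and neither passed.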
